A study of Mus musculus with 37 samples.

Results

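The genes described here store and break down glycogen, interconvert pyruvate and lactate, or carry lactate and glucose across membranes. They were listed by symbol for these known roles and by no rule on measured values, though earlier results of these data were known. The list held Gys1, Gbe1, Ppp1r3c, Pygb and Pygm for glycogen, Ldha and Ldhb for lactate, and Slc16a1, Slc16a3 and Slc2a1 for transport. These were 10 of the 21975 genes in each expression table, and each matched 1 Ensembl identifier.

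Male mice received a controlled cortical impact (CCI), a mechanical injury of the right parietal cortex, or sham surgery in which the skull was opened without impact. All mice, sham included, carried EEG electrodes, and injured mice were separated into those with recorded seizures (PTE+, post-traumatic epilepsy) and those without (PTE-). The mice were wild type, of a strain given as CD1 in the study's methods and as CD31 in the sample labels. At 4 months after injury, cortex of each hemisphere was dissociated with papain, astrocytes were captured on magnetic beads against the surface antigen ACSA-2, and each hemisphere of a mouse gave its own RNA library. Ipsilateral to the impact there were 5 sham, 10 PTE- and 4 PTE+ libraries, and contralateral to it 5 sham, 9 PTE- and 4 PTE+ libraries. They came from 20 mice, of which 17 gave both hemispheres (5 sham, 9 PTE- and 3 PTE+). PTE+ mouse 8_17 had a contralateral library only, and PTE+ mouse 9_19 and PTE- mouse 9_14 had an ipsilateral library only. The study's methods state that a PTE+ animal was left out for low correlation and a PTE- animal for missing sequencing data. They do not name these animals. Levels are in TPM, which sum to 1000000 in every library and are scaled to transcript length. TPM keep no record of read depth, so no counting interval can be given. The table for each hemisphere is separate, and levels set side by side across hemispheres carry that limit.

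As background, astrocytes hold most of the glycogen of the brain, which is built by glycogen synthase and branching enzyme and broken down by phosphorylase when neurotransmitters or falling energy supply call for fuel. Glucose enters through GLUT1, and lactate made from pyruvate leaves through monocarboxylate transporters and can be taken up by neurons, an exchange called the astrocyte-neuron lactate shuttle. Endothelial cells share GLUT1 and the transporter MCT1 with astrocytes, oligodendrocytes share MCT1, and neurons are rich in the B subunit of lactate dehydrogenase.

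The astrocyte label was checked against 10 markers (Gfap, Slc1a2, Slc1a3, Aqp4, Aldh1l1, Gja1, Sox9, Atp1b2, S100b and Aldoc), of which 10 were found. Their summed level lay between 14209 and 20576.5 TPM in the 37 libraries, with Aldoc the most abundant, so the label held. RNA of other cell types was present as well. The 10 oligodendrocyte markers summed to 525 to 4479 TPM with Mbp highest, the 10 endothelial markers to 351 to 2711 TPM with Ly6c1 highest, and 9 of 10 neuronal markers to 42.1 to 716 TPM with Snap25 highest (Meg3 was not analysed here). Mural and fibroblast markers (10 genes, Vtn highest) summed to 745 to 4955 TPM. Microglia and macrophage markers were not used here as a sum. Oligodendrocyte precursor markers (5 genes, Cspg4 highest) summed to 9.89 to 62.1 TPM. Ependymal and choroid plexus markers (5 genes, Ccdc153 highest except in ipsilateral PTE-, where Tmem212 was) summed to 16.9 to 1131 TPM, and red blood cell genes (5 genes, Hba-a1 highest) to 502 to 12624 TPM. No marker of these lists was listed at 0 in every library of a group. In such bulk samples, fewer cells of a type and less RNA per cell cannot be told apart.

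One ipsilateral PTE- library, 9_14, stood apart from the rest. It held 10727 genes above 0 TPM against 15599 to 18534 in the other 36 libraries, and its median correlation with its own group was 0.739 against 0.894 to 0.971. In it, 1662 genes whose mean passed 5 TPM were listed at 0, against 3 to 12 elsewhere. Gfap was at 179 TPM there and between 475 and 1065 TPM in the other 9 ipsilateral PTE- libraries, and Vtn at 4285 TPM against 639 to 1777. Defining markers such as Mog, Mag, Pdgfra, Csf1r, Rbfox3 and Acta2 were listed at 0. Of the 10 genes, Gys1 (74.2 TPM against 27.5 to 45.2), Gbe1 (23.9 against 9.73 to 17.4), Slc16a3 (15.2 against 0.25 to 0.84) and Slc2a1 (418 against 207 to 356) were above every other library of the group. Pygb (243 TPM against 322 to 639) and Ppp1r3c (32.9 against 90.7 to 124) were below every other one, while Pygm, Ldha, Ldhb and Slc16a1 were within range. Tests of the 10 genes that include it are therefore given with and without it, as planned from earlier results of these data.

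Among the glycogen genes, the brain-type glycogen phosphorylase Pygb was the most abundant, with a mean of 436 ± 111 TPM (SD, 36 libraries without 9_14) and a range of 226 to 639 TPM. Pygm, the muscle-type phosphorylase, averaged 135 ± 25.5 TPM. Ppp1r3c, a targeting subunit that brings protein phosphatase 1 to glycogen and so favours synthesis, averaged 111 ± 16.9 TPM. The glycogen synthase Gys1 averaged 37.4 ± 8.13 TPM and the branching enzyme Gbe1 13.9 ± 3.05 TPM. Both phosphorylases were thus higher per transcript length than the genes for synthesis and branching. Gys1 overlaps Ruvbl2 on the opposite strand (mean 51.6 TPM), and the library kit does not mark strand, so reads from the overlap cannot be told apart.

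Ldhb, the lactate dehydrogenase subunit that favours the use of lactate, was the most abundant of the 10 genes, with a mean of 3290 ± 435 TPM (SD, 36 libraries) and rank 25 of all genes by mean level. Ldha, the subunit that favours lactate production, averaged 569 ± 71.5 TPM. Ldhb was above Ldha in 37 of 37 libraries, by 5.78 times on average, and their ranges did not overlap. Slc16a1, which encodes MCT1, averaged 57.0 ± 14.7 TPM. Slc16a3, which encodes the lactate exporter MCT4, was at only 0.715 ± 0.348 TPM with a range of 0.25 to 1.61 TPM. Slc2a1, which encodes GLUT1, averaged 338 ± 87.0 TPM. It overlaps Gm12867 and Gm12868 on the opposite strand, neither of which was analysed here.

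Ordered by mean level, the genes ran Ldhb, Ldha, Pygb, Slc2a1, Pygm, Ppp1r3c, Slc16a1, Gys1, Gbe1 and Slc16a3. Steps without overlapping ranges were those from Ldhb to Ldha, from Slc2a1 to Pygm (2.50 times) and from Gbe1 to Slc16a3 (19.4 times), leaving 9_14 out. Neighbours whose order turned in some libraries were Ldha and Pygb (Ldha higher in 31 of 37), Pygb and Slc2a1 (26 of 37), Pygm and Ppp1r3c (30 of 37), Ppp1r3c and Slc16a1 (36 of 37, turned in 9_14) and Slc16a1 and Gys1 (35 of 37). Ldha and Ldhb varied least between libraries, with coefficients of variation of 12.6% and 13.2%, and Slc16a3 most, with 48.6%. Slc16a1 (25.8%), Slc2a1 (25.7%), Pygb (25.5%), Gbe1 (22.003%) and Gys1 (21.7%) lay above Pygm (18.9%) and Ppp1r3c (15.2%).

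**Figure D1:**
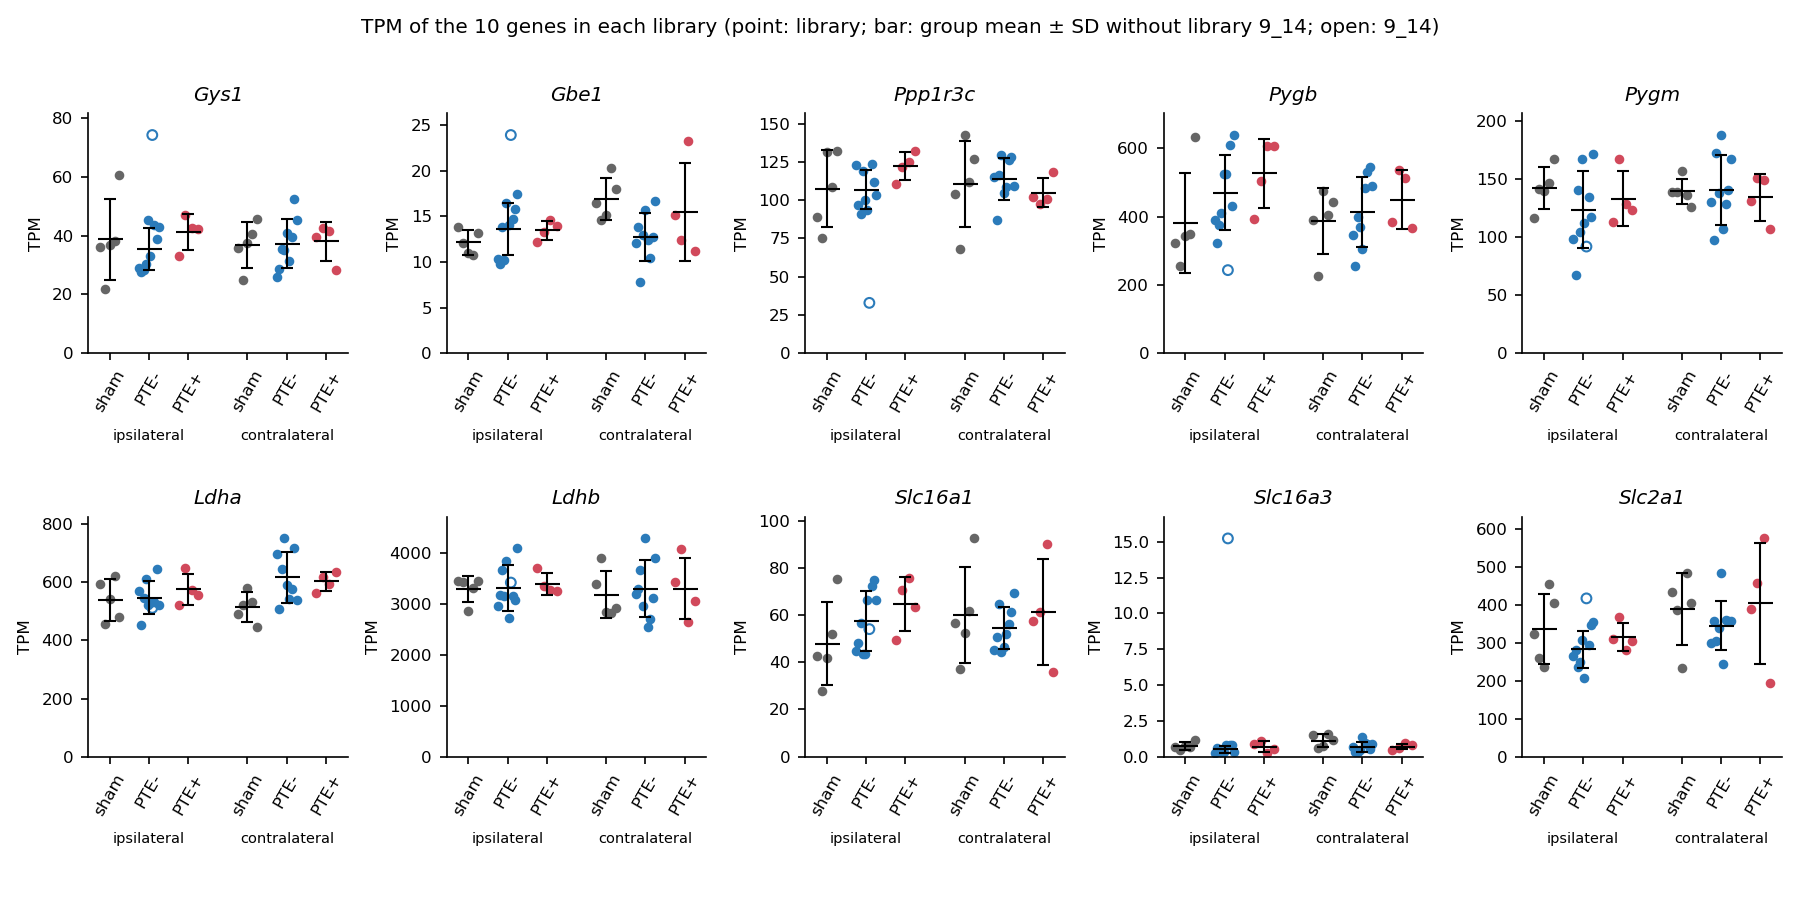
TPM of the 10 genes in each library, by group and hemisphere, with group mean ± SD drawn without ipsilateral PTE- library 9_14, which is shown as an open circle. Groups overlap for every gene, and 9_14 lies far from its group for Gys1 (74.2 TPM), Ppp1r3c (32.9 TPM) and Slc16a3 (15.2 TPM).

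With all libraries, only Pygb and Gbe1 were called in any comparison, by limma at unadjusted p under 0.05 and a fold of at least 1.2. Shares of all tested genes called were 0.0843% to 4.05% over these comparisons. Slc16a1, Ldha and Ppp1r3c were not called, nor were Pygm, Gys1, Ldhb and Slc2a1, whose levels follow. Slc16a3 was too low to be fitted. Ipsilateral Pygm averaged 142 ± 18.1 TPM in sham, 124 ± 33.4 in PTE- without 9_14 and 133 ± 23.7 in PTE+ mice, and contralateral Pygm 139 ± 10.9, 141 ± 30.1 and 134 ± 20.4 TPM in the same order. Gys1 averaged 38.7 ± 13.8, 35.4 ± 7.22 and 41.2 ± 5.97 TPM ipsilaterally and 36.8 ± 7.70, 37.1 ± 8.34 and 38.0 ± 6.55 TPM contralaterally. The groups overlapped for both genes in either hemisphere. Ldhb averaged 3291 ± 254, 3307 ± 452 and 3388 ± 216 TPM ipsilaterally and 3168 ± 461, 3294 ± 562 and 3294 ± 604 TPM contralaterally. Slc2a1 averaged 337 ± 93.1, 283 ± 49.5 and 316 ± 36.8 TPM ipsilaterally and 389 ± 94.4, 345 ± 65.1 and 405 ± 160 TPM contralaterally. The widest spread of Slc2a1 was in contralateral PTE+ mice, between 195 and 576 TPM. Slc16a3 averaged 0.736 ± 0.268, 0.507 ± 0.244 and 0.703 ± 0.353 TPM ipsilaterally and 1.12 ± 0.452, 0.698 ± 0.346 and 0.705 ± 0.200 TPM contralaterally. At such levels a log2(TPM + 1) scale understates change.

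Several of the genes varied together from library to library, and this was examined over all 36 pairs of the 9 genes above 5 TPM in each hemisphere, a family of 72 relations chosen after values were seen. With 9_14 left out, 5 relations had an adjusted permutation p of Pearson's r under 0.05 (100000 permutations, Benjamini-Hochberg over 72), and 5 of these were positive. They joined Pygb, Gys1 and Slc16a1. Ipsilateral Pygb and Gys1 gave r = 0.785 (permutation p = 0.00013, adjusted 0.00468) and rho = 0.771 (permutation p = 0.00032, adjusted 0.0115) over 18 libraries. Contralaterally the same pair gave r = 0.709 (permutation p = 0.00097, adjusted 0.0175) and rho = 0.719 (permutation p = 0.00115, adjusted 0.0207). Without the 2 libraries farthest from the median of Pygb, r was 0.709 and 0.525 in the 2 hemispheres. Mouse names begin with 8 or 9, a prefix whose meaning is not given and which may mark a batch. Within prefix 8 and prefix 9, r of this pair was 0.593 and 0.532 ipsilaterally and 0.851 and 0.345 contralaterally. With 9_14 kept, the ipsilateral r was 0.318, so the relation there depended on leaving this library out.

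Gys1 and Slc16a1 gave r = 0.701 (permutation p = 0.00134, adjusted 0.0193) and rho = 0.608 (permutation p = 0.00912, adjusted 0.0657) ipsilaterally, and r = 0.718 (permutation p = 0.0008, adjusted 0.0175) and rho = 0.775 (permutation p = 0.00025, adjusted 0.0115) contralaterally. Without the 2 farthest libraries r was 0.494 and 0.636. Within prefix 8 and 9 it was 0.588 and 0.311 ipsilaterally and 0.785 and 0.666 contralaterally, and with 9_14 kept the ipsilateral r was 0.570. Pygb and Slc16a1 gave r = 0.804 (permutation p = 9e-05, adjusted 0.00468) and rho = 0.748 (permutation p = 0.0005, adjusted 0.0120) ipsilaterally, and r = 0.605 (permutation p = 0.00785, adjusted 0.0586) and rho = 0.662 (permutation p = 0.00321, adjusted 0.0462) contralaterally. Without the 2 farthest libraries r was 0.727 and 0.533, within prefix 8 and 9 it was 0.751 and 0.611 ipsilaterally and 0.745 and 0.491 contralaterally, and with 9_14 kept the ipsilateral r was 0.721. Libraries with high Pygb thus tended to have high Gys1 and Slc16a1. In every ipsilateral group all 3 genes averaged higher in prefix 9 than in prefix 8. In sham these means were 442 and 289 TPM for Pygb, 45.1 and 29.0 for Gys1, and 56.4 and 35.3 for Slc16a1. Contralateral sham and PTE- mice had the same order, while Pygb and Gys1 had the opposite order in PTE+ mice. The part of prefix or group in these relations was not tested. Libraries of a hemisphere share 1 table and its scaling, and the part of cell composition in these relations was not tested beyond the marker relations given further on.

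Promoters are shown for Pygb, Gys1 and Slc16a1, which varied together, and for Ppp1r3c and Ldha, whose differences are described next. The 250 bases before the RefSeq start were read on GRCm38.p6 for the 10 genes, which matched 11 promoters, 2 of them for Ldha. The motif ACGTG, the core of the hypoxia response element, was searched on both strands, so that it also appears as CACGT, and is in capitals. It was present in 7 of 11 promoters, belonging to 7 of 10 genes, and in 16.6% of 32851 promoters overall (5444). The cAMP response element TGACGTCA, which reads the same on both strands, was present in 1 of the 11, a promoter of Ldha, and in 1.55% overall (508). Both searches were chosen after values were seen, and a match describes the sequence only. Pygb lies at chr2:150786546-150786795 (+), Gys1 at chr7:45434589-45434838 (+, no match), Slc16a1 at chr3:104638414-104638663 (+), Ppp1r3c at chr19:36736605-36736854 (-) and the Ldha promoter with matches at chr7:46845554-46845803 (+).
Pygb: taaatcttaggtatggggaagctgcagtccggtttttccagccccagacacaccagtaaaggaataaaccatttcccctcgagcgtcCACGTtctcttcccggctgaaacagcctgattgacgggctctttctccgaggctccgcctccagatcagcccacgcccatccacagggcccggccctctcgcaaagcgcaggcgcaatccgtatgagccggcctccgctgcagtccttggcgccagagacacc
Gys1: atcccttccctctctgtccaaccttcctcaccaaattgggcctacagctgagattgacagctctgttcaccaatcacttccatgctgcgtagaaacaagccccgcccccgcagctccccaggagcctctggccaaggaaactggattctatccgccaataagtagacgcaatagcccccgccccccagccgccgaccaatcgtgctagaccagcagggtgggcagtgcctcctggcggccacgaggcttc
Slc16a1: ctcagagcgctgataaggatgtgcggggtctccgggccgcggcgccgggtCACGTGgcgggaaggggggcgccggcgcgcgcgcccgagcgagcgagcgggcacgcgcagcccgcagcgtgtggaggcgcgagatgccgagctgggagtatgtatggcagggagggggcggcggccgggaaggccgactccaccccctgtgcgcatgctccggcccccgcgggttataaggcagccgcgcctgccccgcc
Ppp1r3c: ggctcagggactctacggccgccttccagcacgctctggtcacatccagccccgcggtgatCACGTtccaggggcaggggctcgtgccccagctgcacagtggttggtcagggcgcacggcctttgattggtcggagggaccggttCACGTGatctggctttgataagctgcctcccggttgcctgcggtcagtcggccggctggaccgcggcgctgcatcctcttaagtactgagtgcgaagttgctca
Ldha: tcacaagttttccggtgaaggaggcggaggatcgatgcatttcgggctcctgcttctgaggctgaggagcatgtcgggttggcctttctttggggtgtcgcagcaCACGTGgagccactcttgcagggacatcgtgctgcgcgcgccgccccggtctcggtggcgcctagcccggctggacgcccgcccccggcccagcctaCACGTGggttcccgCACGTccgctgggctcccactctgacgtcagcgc

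Differences were tested with limma, a linear model with moderated variances, on log2(TPM + 1), over all genes whose mean passed 5 TPM in 1 or more groups of the comparison. 9 of the 10 genes entered, Slc16a3 not. A gene was called at an unadjusted p under 0.05 and a fold of at least 1.2, the thresholds of the study. Under Benjamini-Hochberg adjustment over all tested genes, limma left 0 genes of the whole table under 0.05 in each of the 10 comparisons with all libraries, while 9 to 472 genes were under 0.05 unadjusted. Without 9_14 there were 2 such genes in ipsilateral CCI against sham and 1 in ipsilateral PTE- against sham, none of the 10 described here, whose adjusted p was 0.9615 or more in each comparison. Each call of the 10 genes that follows is therefore one that fails the correction. CCI pools PTE- and PTE+ mice, and the same sham libraries serve several comparisons, so these are not independent of one another.

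In the injured hemisphere, the phosphorylase gene Pygb and the lactate transporter gene Slc16a1 had the largest differences from sham in CCI and PTE+ mice. In PTE- mice with all libraries, Pygm (-0.28) lay between Slc16a1 (0.29) and Pygb (0.25) in size. Pygb stood at 322, 256, 343, 349 and 634 TPM in sham mice 8_15, 8_16, 9_9, 9_10 and 9_11, and at 395, 503, 607 and 606 TPM in PTE+ mice 8_10, 9_17, 9_18 and 9_19. In PTE- mice it ran from 243 (9_14) over a median of 421 to 639 TPM. All 4 PTE+ mice were above the sham median, and sham mouse 9_11 was higher than each of them, so the groups overlapped. Group means were 381 ± 146 TPM in sham, 470.1 ± 110 in PTE- without 9_14 (447 ± 126 with it) and 528 ± 101 in PTE+ mice.

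Pygb rose in PTE+ mice by 0.52 on the log2 scale (SE 0.24, unadjusted limma p = 0.0485), which was 1 call among the 9 genes, beside 1.56% of all tested genes (163 of 10447). A single call in 9 is too few to set apart from that background. The two-sided exact permutation test of the same libraries gave p = 0.111 over 126 arrangements, and the adjusted limma p was 1.0. Without a TPM filter, after quantile normalization (0.51) and in a fit of all 3 groups, Pygb was not called. The call was lost without PTE+ 9_17 (0.53, p = 0.0740), 9_18 (0.44, p = 0.122) or 9_19 (0.45, p = 0.119) and without sham 8_15 (0.48, p = 0.0941), 8_16 (0.39, p = 0.115), 9_9 (0.50, p = 0.0826) or 9_10 (0.51, p = 0.0796), all limma values. It held without PTE+ 8_10 (0.65, p = 0.0243) and without sham 9_11 (0.72, p = 0.000857), and in both cases Slc16a1 was called as well, for 2 calls. Calls over all genes went up with them, to 2.26% without 8_10 and 9.95% (1038 of 10434) without 9_11. Sham 9_11 had the lowest median correlation with its own group, 0.894, of the 36 libraries other than 9_14. Within mouse prefixes the Pygb difference was 0.46 for prefix 8 (1 PTE+ against 2 sham) and 0.43 for prefix 9 (3 against 3). The median difference of the 9 genes was 0.14, and that of all tested genes 0.09.

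In CCI against sham, 0 of the 9 genes were called with all ipsilateral libraries, beside 1.62% of all tested genes, and 1 gene (Pygb) without 9_14, beside 3.83%. Pygb differed by 0.33 (SE 0.21, limma p = 0.130) with all libraries and rose by 0.39 (SE 0.18, limma p = 0.0395) without 9_14. Exact permutation gave p = 0.153 and 0.0606, with 12 of 14 injured libraries above the sham median. Within prefixes 8 and 9 the difference was 0.39 and 0.25 (0.38 in prefix 9 without 9_14). Slc16a1 had the largest difference with all libraries, 0.34 (SE 0.18, limma p = 0.0731, exact permutation p = 0.0826), and 0.35 without 9_14 (limma p = 0.0655, exact permutation p = 0.0891). Its levels were 42.6, 28.02, 42.1, 52.0 and 75.2 TPM in sham mice 8_15, 8_16, 9_9, 9_10 and 9_11 and 49.3, 70.8, 75.9 and 63.3 TPM in PTE+ mice 8_10, 9_17, 9_18 and 9_19. PTE- mice ranged from 43.6 over a median of 55.4 to 74.8 TPM, and all 14 injured libraries exceeded the sham median, while sham 9_11 exceeded all but 1 of them. Group means of Slc16a1 were 48.0 ± 17.4 TPM in sham, 57.1 ± 12.1 in PTE- and 64.8 ± 11.6 in PTE+ mice. Without sham 9_11, which was the highest sham mouse for both genes, Pygb (0.53, limma p = 0.0157) and Slc16a1 (0.52, limma p = 0.00760) were both called, beside 4.003% of all tested genes. Without sham 8_16, the lowest for both, the differences were smaller, 0.20 for Pygb (limma p = 0.370) and 0.17 for Slc16a1 (limma p = 0.341). Within prefixes 8 and 9, Slc16a1 differed by 0.47 and 0.23 (0.26 in prefix 9 without 9_14). With prefix as a covariate Slc16a1 was called, beside 1.90% of all tested genes. It was also called after median centring, beside 1.70%, and with array weights, beside 8.08%. The median difference of the 9 genes was 0.04 against -0.01 for all tested genes, and 0.05 against 0.03 without 9_14.

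In PTE- against sham, 0 of the 9 genes were called ipsilaterally, beside 1.54% of all tested genes, and 0 without 9_14, beside 3.98%. Slc16a1 had the largest difference, 0.29 (SE 0.20, limma p = 0.170, exact permutation p = 0.184), with 10 of 10 PTE- libraries above the sham median and prefix values of 0.46 and 0.17 (0.21 in prefix 9 without 9_14). Without 9_14 it was 0.30 (limma p = 0.161, exact permutation p = 0.206). The largest difference without 9_14 was that of Pygb, 0.34 (SE 0.20, limma p = 0.104, exact permutation p = 0.142), which was 0.25 (SE 0.22, limma p = 0.285, exact permutation p = 0.318) with all libraries. Leaving out sham 9_11 again brought 2 calls, Pygb and Slc16a1 (Slc16a1 0.47, limma p = 0.0259), beside 2.51% of all tested genes, and leaving out sham 8_16 took Slc16a1 down to 0.12 (limma p = 0.546). Slc16a1 in PTE+ against sham, looked at after values were seen, differed by 0.48 (SE 0.25, limma p = 0.0752, exact permutation p = 0.135), with 4 of 4 PTE+ mice above the sham median. Medians over the 9 genes and over all tested genes were 0.02 and -0.04, and 0.02 and 0.00 without 9_14.

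**Figure D2:**
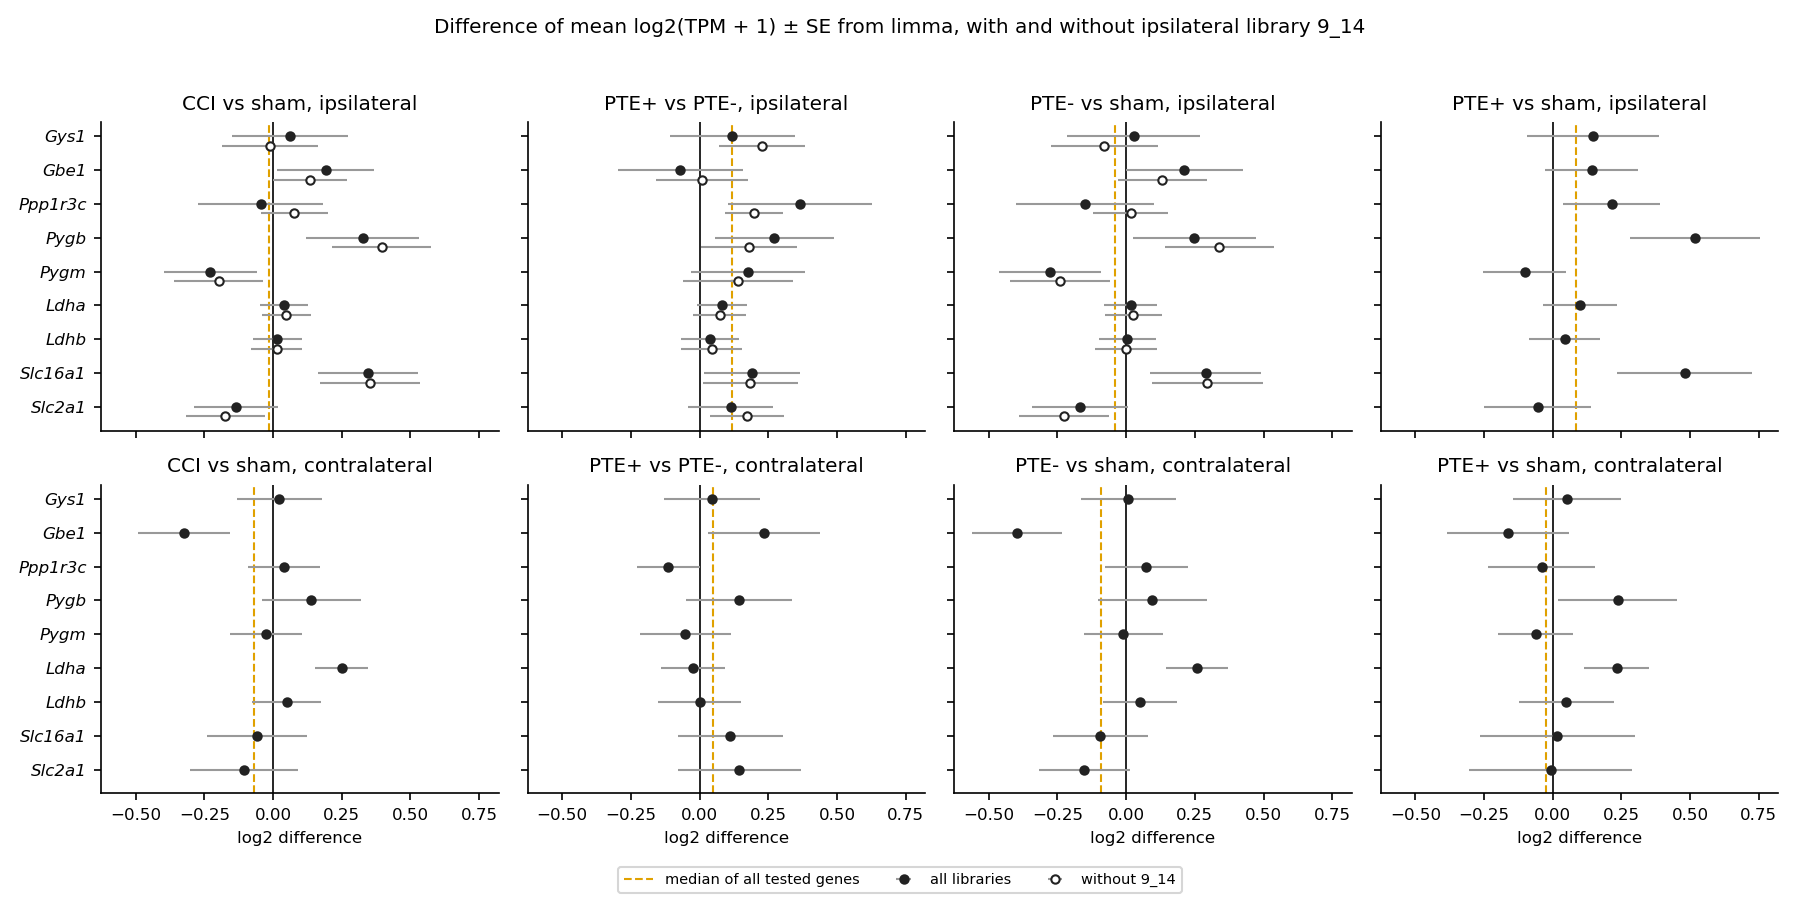
Difference of mean log2(TPM + 1) ± SE from limma for the 9 tested genes in 8 comparisons, with all libraries (filled) and without ipsilateral library 9_14 (open); the dashed line is the median of all tested genes. Pygb lies at 0.52 in ipsilateral PTE+ against sham, and Gbe1 at -0.40 in contralateral PTE- against sham.

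Markers of other cell types moved in ipsilateral CCI and PTE- against sham. Of the oligodendrocyte, ependymal, endothelial, neuronal, mural and red blood cell lists, 0 genes were called by limma in PTE+ against sham. In groups this small, a lack of calls does not show a lack of difference. The mean log2(TPM + 1) of the list differed there by -0.60 for oligodendrocyte and -1.01 for red blood cell genes. It differed by 0.41 for ependymal, 0.27 for mural, 0.12 for endothelial and 0.06 for neuronal genes. Oligodendrocyte markers summed to 1781, 4023, 3094, 4479 and 525 TPM in sham mice 8_15, 8_16, 9_9, 9_10 and 9_11, between 774 and 2274 TPM in PTE- and between 1193 and 2341 TPM in PTE+ mice. The sham mouse with the highest Slc16a1 and Pygb, 9_11, was the one with the lowest oligodendrocyte sum. Mog (-1.75), Mag (-1.53) and Opalin (-1.23) fell in CCI against sham on the log2 scale. These were 3 of 8 tested oligodendrocyte markers, beside 1.62% of all tested genes. All 3 are at 0 in 9_14. Without it, in fits of marker and pathway genes added after seeing the data, they were at -1.56, -1.26 and -1.08 in CCI. The same 3 fell in PTE- against sham (-1.98, -1.75 and -1.34), beside 1.54% of all tested genes. There Opalin was not called without 9_14 (limma p = 0.0555). The astrocyte marker Gfap rose by 1.18 in CCI, 1.14 in PTE- and 1.29 in PTE+ mice against sham (1.32 in CCI and 1.33 in PTE- without 9_14, with adjusted limma p of 0.0212 and 0.0299), and Aqp4, a water channel, by 0.39 in CCI (0.42 without 9_14) and 0.56 in PTE+ mice. Foxj1 and Tmem212, of the 5 ependymal genes, rose by 0.98 and 1.08 in CCI (1.05 and 1.19 without 9_14, where Ccdc153 was called too). Endothelial, neuronal, mural and red blood cell lists had 0 calls in CCI against sham, each from limma.

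Across the ipsilateral libraries, Slc16a1 was lower where oligodendrocyte markers were higher. For 3 genes known from other cell types, 8 relations to marker scores (mean log2(TPM + 1) of a list) were computed over 18 libraries each, chosen after values were seen and with 9_14 left out. Slc16a1 against the oligodendrocyte score gave r = -0.741 (permutation p = 0.00047, adjusted over 8 relations 0.00188) and rho = -0.672 (permutation p = 0.00274, adjusted 0.00744) ipsilaterally. Without the 2 farthest libraries r was -0.502 (permutation p = 0.0488), within prefixes 8 and 9 it was -0.877 and -0.476, and with 9_14 it was -0.595. Contralaterally the relation was r = -0.238 (permutation p = 0.339, adjusted 0.388) and rho = -0.284 (permutation p = 0.254, adjusted 0.339), with r = -0.098 without the 2 farthest and -0.336 and -0.117 within prefixes. Whether oligodendrocyte content has a part in the Slc16a1 difference was not tested. Slc16a1 against the endothelial score gave r = -0.115 (permutation p = 0.648, adjusted 0.648) and rho = 0.044 (permutation p = 0.864, adjusted 0.864) ipsilaterally, and r = 0.354 (permutation p = 0.152, adjusted 0.202) and rho = 0.207 (permutation p = 0.405, adjusted 0.463) contralaterally. Without the 2 farthest, these r were 0.021 and 0.043, and within prefixes 8 and 9 they were 0.169 and 0.012 ipsilaterally and -0.053 and 0.508 contralaterally.

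Slc2a1, which endothelial cells express strongly, followed the endothelial score contralaterally, with r = 0.740 (permutation p = 0.00042, adjusted 0.00188) and rho = 0.744 (permutation p = 0.00051, adjusted 0.00408). Without the 2 farthest libraries r was 0.605 (permutation p = 0.0127), and within prefixes 8 and 9 it was 0.334 and 0.788. Ipsilaterally r was 0.448 (permutation p = 0.0615, adjusted 0.0984) and rho 0.509 (permutation p = 0.0336, adjusted 0.0673), with r = 0.291 (permutation p = 0.274) without the 2 farthest, 0.817 and 0.553 within prefixes, and 0.393 with 9_14. PTE+ mouse 9_17 had both the highest contralateral Slc2a1 and the highest endothelial sum, 2711 TPM. Ldhb, rich in neurons, ran against the neuronal score, with r = -0.624 (permutation p = 0.00542, adjusted 0.0145) and rho = -0.676 (permutation p = 0.00279, adjusted 0.00744) contralaterally. There r was -0.713 (permutation p = 0.00186) without the 2 farthest and -0.618 and -0.688 within prefixes. Ipsilaterally r was -0.487 (permutation p = 0.0395, adjusted 0.0789) and rho -0.439 (permutation p = 0.0727, adjusted 0.116), with -0.557 (permutation p = 0.0254) without the 2 farthest, -0.694 and -0.625 within prefixes, and -0.432 with 9_14. Ldhb thus tended to be higher in libraries with less neuronal RNA.

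**Figure D3:**
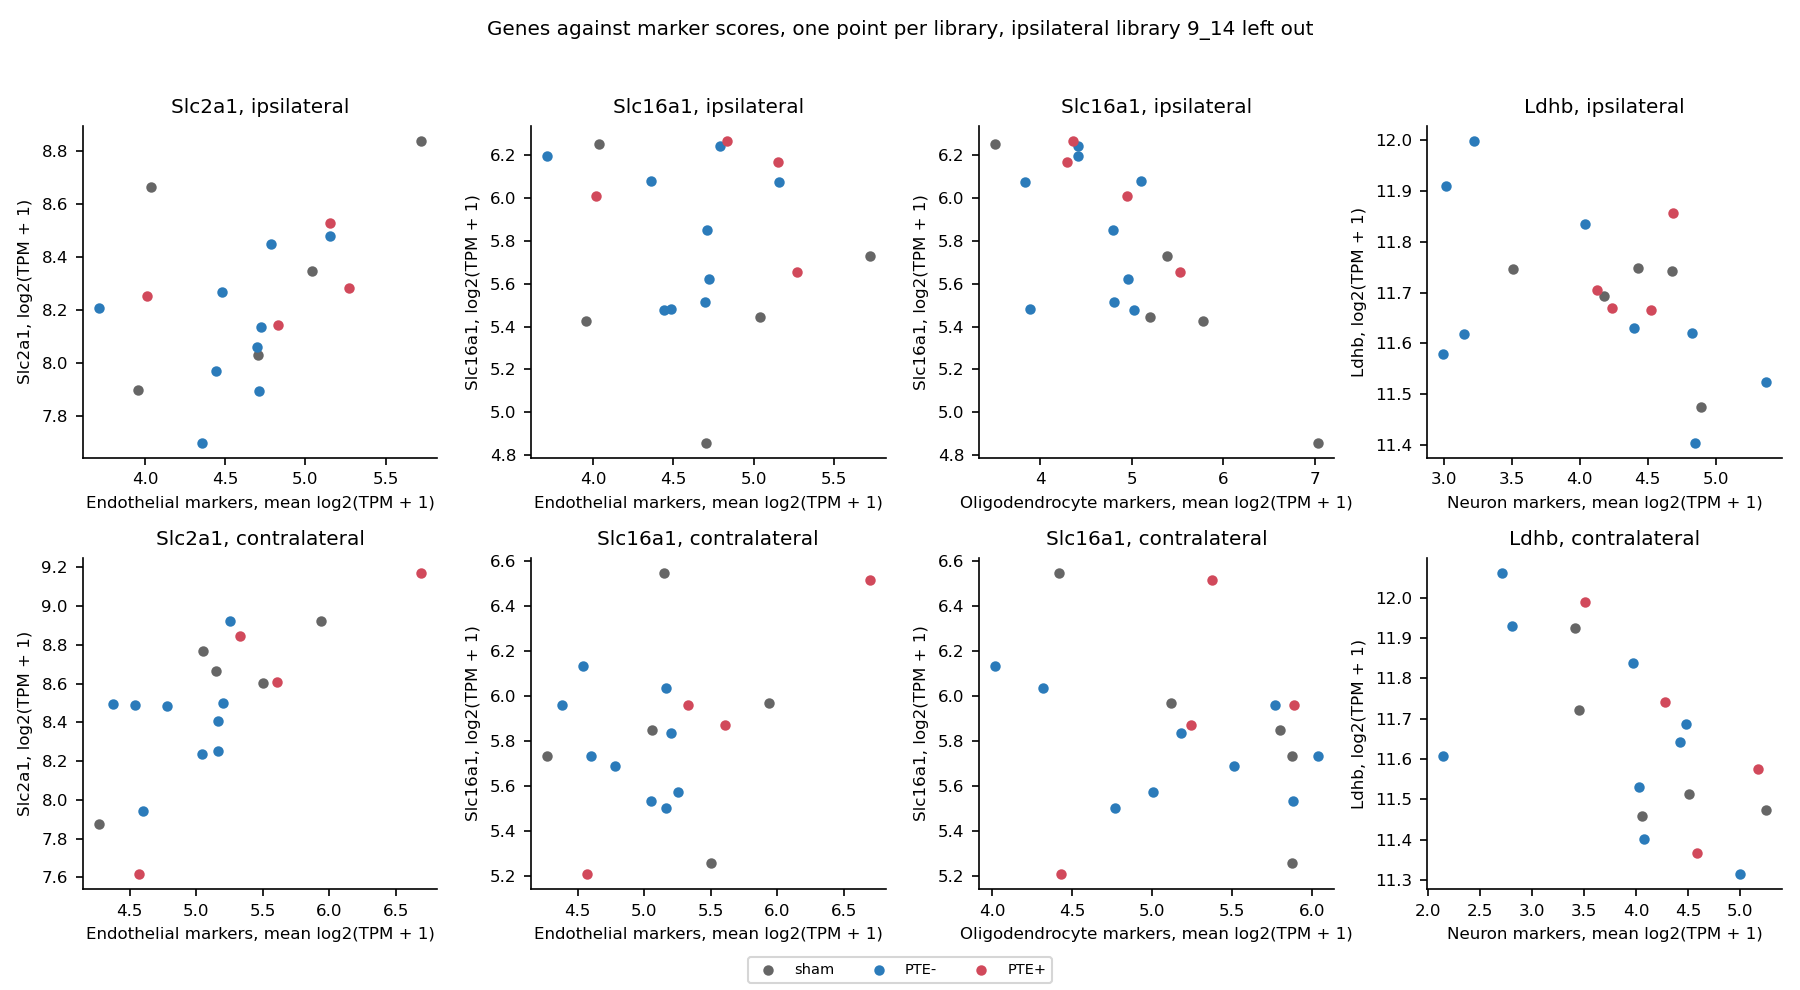
Log2(TPM + 1) of Slc2a1, Slc16a1 and Ldhb against the mean log2(TPM + 1) of a marker list, ipsilateral above and contralateral below, 1 point per library with 9_14 left out. Contralateral Slc2a1 goes up with the endothelial score (r = 0.740), and ipsilateral Slc16a1 goes down with the oligodendrocyte score (r = -0.741).

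In the hemisphere opposite the impact, the branching enzyme gene Gbe1 and the lactate dehydrogenase gene Ldha were those with a limma p under 0.05 against sham. Gbe1 stood at 16.5, 14.6, 15.2, 20.3 and 17.97 TPM in sham mice 8_15, 8_16, 9_9, 9_10 and 9_11, and between 7.84 and 16.7 TPM with a median of 12.7 TPM in the 9 PTE- mice. PTE+ mice 8_10, 8_17, 9_17 and 9_18 had 15.1, 12.4, 23.2 and 11.2 TPM. Of the PTE- mice, 7 of 9 lay below every sham mouse, while PTE+ mice lay on both sides of the sham range. Group means of contralateral Gbe1 were 16.9 ± 2.31 TPM in sham, 12.8 ± 2.64 in PTE- and 15.5 ± 5.42 in PTE+ mice.

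Gbe1 in PTE- mice fell by 0.40 on the log2 scale (SE 0.16, unadjusted limma p = 0.0257, adjusted 0.9615), and the exact permutation test gave p = 0.0160 over 2002 arrangements. This was 1 call among the 9 genes, beside 3.76% of all tested genes (397 of 10564), again too few to set apart from the background. The difference was -0.41 within prefix 8 (4 PTE- against 2 sham) and -0.37 within prefix 9 (5 against 3). It was not called without sham 9_10 (-0.33, limma p = 0.0768) or 9_11 (-0.37, limma p = 0.0519). The call was also lost after median centring (-0.28) and after quantile normalization (-0.25). Ldha in the same comparison differed by 0.26 (SE 0.11, limma p = 0.0362, exact permutation p = 0.0290), just under the fold of 1.2, with 8 of 9 PTE- mice above the sham median. It passed the fold, for 2 calls with Gbe1, when PTE- 8_11, 9_12, 9_13, 9_15 or 9_20 was left out, beside 3.36% to 3.82% of all tested genes. Without sham 9_9 there were 3 calls, Gbe1, Ldha (0.30, limma p = 0.0254) and Slc2a1, beside 7.38% of all tested genes. Without sham 9_10, Ldha passed (0.27, limma p = 0.0446) as Gbe1 was lost, beside 2.42% of all tested genes, and without sham 9_11 neither was called. The limma p of Ldha was above 0.05 without sham 8_15 (0.24, p = 0.0703) or 9_11 (0.21, p = 0.107). Medians over the 9 genes and all tested genes were 0.01 and -0.09.

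Ldha stood at 492, 521, 582, 533 and 445 TPM in the contralateral sham mice, in the same order, and at 564, 620.1, 593 and 636 TPM in the PTE+ mice. PTE- mice ranged from 507 over a median of 589.9 to 751 TPM. Of 13 injured mice, 8 were above every sham mouse and 12 above the sham median. Group means were 515 ± 50.5 TPM in sham, 618 ± 87.9 in PTE- and 603 ± 31.9 in PTE+ mice. In CCI against sham, Ldha was higher by 0.25 (SE 0.096, limma p = 0.0167, exact permutation p = 0.0111 over 8568 arrangements), a fold of 1.19 and so below the threshold. Within prefixes 8 and 9 the difference was 0.30 and 0.21.

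In this comparison 0 of the 9 genes were called, beside 4.05% of all tested genes. Gbe1 had the largest difference, -0.33 (SE 0.17, limma p = 0.0666, exact permutation p = 0.0670), and prefix values were -0.33 and -0.30. In 9 of the 13 injured mice Gbe1 was under the lowest sham mouse. It was called without PTE+ 9_17 (-0.39, limma p = 0.0140), the PTE+ mouse with the highest value, where 6.32% of all tested genes were called. Ldha passed the fold without sham 9_9 (0.29) or 9_10 (0.26) or PTE- 8_11 (0.27), 9_13 (0.26) or 9_20 (0.26), for 1 call each beside 8.34%, 2.94%, 3.93%, 3.76% and 4.204% of all tested genes, and its limma p was 0.0671 without sham 9_11. Median differences of the 9 genes and of all tested genes were 0.02 and -0.07. Slc16a3, left out of the fit by its low level, had an exact permutation p of 0.0440 in CCI against sham (difference -0.31 on the log2(TPM + 1) scale), and 5 of 13 injured mice lay under the lowest sham mouse. It was singled out after values were seen.

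In PTE+ against sham, 0 of the 9 genes were called contralaterally, beside 1.97% of all tested genes. Pygb had the largest difference, 0.24 (SE 0.22, limma p = 0.295, exact permutation p = 0.421), which was 0.05 (limma p = 0.735) without sham 8_16 and 0.15 (limma p = 0.545) without PTE+ 8_17. Its levels were 391, 226, 475, 405 and 443 TPM in the sham mice and 383, 536, 513 and 368 TPM in the PTE+ mice, so that 2 of 4 PTE+ mice were above the sham median. Group means of contralateral Pygb were 388 ± 96.3 TPM in sham, 414 ± 103 in PTE- and 449.9 ± 86.8 in PTE+ mice. The prefix values, 0.61 and -0.02, differed in sign. Ldha, looked at after values were seen, differed by 0.23 (SE 0.12, limma p = 0.0761, exact permutation p = 0.0238), with 3 of 4 PTE+ mice above every sham mouse. Medians over the 9 genes and all tested genes were 0.02 and -0.02.

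Of 9 tested endothelial genes, 2 fell in contralateral PTE- mice against sham, Vwf (-0.68) and Abcb1a (-0.53), 1 rose in PTE+ mice against sham, Cldn5 (0.77), and 0 were called by limma at unadjusted p under 0.05 in CCI against sham. The shares of all tested genes were 3.76%, 1.97% and 4.05%. Endothelial sums were 988, 2083, 477, 1657 and 929 TPM in sham mice 8_15, 8_16, 9_9, 9_10 and 9_11, 563 to 1499 TPM in PTE- and 848 to 2711 TPM in PTE+ mice. Their part in the Gbe1 and Ldha differences was not tested.

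Between epileptic and non-epileptic injured mice, 0 of the 9 genes were called ipsilaterally, beside 0.573% of all tested genes with all libraries, and 0 without 9_14, beside 1.89%. The glycogen-targeting subunit gene Ppp1r3c had the largest difference with all libraries. It stood at 111, 121, 125 and 132 TPM in PTE+ mice 8_10, 9_17, 9_18 and 9_19, and from 32.9 (9_14) over a median of 102 to 124 TPM in PTE- mice. All 4 PTE+ mice exceeded the PTE- median, and 2 exceeded every PTE- mouse. Sham mice had 89.2, 75.5, 132, 109 and 132 TPM and covered the whole PTE+ range. The difference was 0.36 (SE 0.26, limma p = 0.182, exact permutation p = 0.239) with all libraries and 0.20 (SE 0.10, limma p = 0.0763, exact permutation p = 0.0615) without 9_14. Within prefixes 8 and 9 it was 0.06 (1 PTE+ against 4 PTE-) and 0.52 (3 against 6, and 0.25 without 9_14). Without 9_14 the largest difference was that of Gys1, 0.23 (SE 0.16, limma p = 0.171, exact permutation p = 0.175), which was 0.12 (SE 0.23, limma p = 0.605, exact permutation p = 0.615) with all libraries. Ipsilateral group means of Ppp1r3c were 107 ± 25.3 TPM in sham, 107 ± 12.7 in PTE- without 9_14 and 122 ± 8.90 in PTE+ mice. Median differences of the 9 genes and of all tested genes were both 0.12, and 0.17 and 0.08 without 9_14.

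Contralaterally 0 of the 9 genes were called between PTE+ and PTE- mice, beside 2.79% of all tested genes. Gbe1 had the largest difference, 0.24 (SE 0.20, limma p = 0.264, exact permutation p = 0.294), with prefix values of 0.24 and 0.25 and 2 of 4 PTE+ mice above the PTE- median. It rested on PTE+ 9_17 (23.2 TPM), without which it was 0.03 (limma p = 0.870), and was 0.36 (limma p = 0.120) without PTE+ 9_18. Without PTE+ 9_18, which had the lowest Slc2a1 (195 TPM), 1 gene, Slc2a1, was called, beside 4.66% of all tested genes. Contralateral Ppp1r3c averaged 111 ± 28.1 TPM in sham, 114 ± 13.6 in PTE- and 105 ± 9.43 in PTE+ mice. Pecam1 (0.78) and Tek (0.80), 2 of 9 tested endothelial genes, and Stmn2 (0.64), 1 of 8 neuronal genes, rose in PTE+ mice in this comparison. Ipsilaterally, the immediate early genes Fos (-1.78), Egr1 (-1.31), Junb (-1.11) and Ier2 (-0.70) and the red blood cell genes Hba-a1 (-1.11) and Hbb-bt (-1.09) fell in PTE+ mice. These were 4 of 7 tested immediate early genes and 2 of 4 tested red blood cell genes, beside 0.573% of all tested genes. All 6 were called without 9_14 too, Fos at -1.78, Egr1 at -1.33, Junb at -0.95, Ier2 at -0.69, Hba-a1 at -0.93 and Hbb-bt at -0.89. Of 5 ependymal and choroid plexus genes, 3 were called only without 9_14, Ccdc153 (-0.94), Folr1 (-0.97) and Tmem212 (-0.94). The share of all tested genes called ipsilaterally without 9_14 was 1.89%. Medians over the 9 genes and all tested genes were 0.04 and 0.05.

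Whether an effect differed between hemispheres was tested directly, as the ipsilateral minus the contralateral difference. For CCI against sham, Gbe1 differed between hemispheres by 0.52 (SE 0.24, limma p = 0.0367, adjusted 1.0), which was 1 call among 9 genes, beside 1.37% of all tested genes. Without 9_14 it was 0.46 (SE 0.21, limma p = 0.0351), 1 call beside 2.69%. Ipsilateral Gbe1 was 13.9, 12.1, 10.9, 10.8 and 13.1 TPM in sham mice 8_15, 8_16, 9_9, 9_10 and 9_11, below the contralateral value of the same mouse in 5 of 5. PTE+ mice 8_10, 9_17, 9_18 and 9_19 had 12.2, 13.3, 14.6 and 13.9 TPM, and PTE- mice 9.73 to 23.9 TPM with a median of 14.4 TPM. Within mice, ipsilateral minus contralateral log2 Gbe1 averaged -0.44 (SD 0.25) in sham, 0.09 (SD 0.38) in PTE- and -0.23 (SD 0.56) in PTE+ mice. Gbe1 was lower ipsilaterally in 2 of 3 PTE+ and in 3 of 9 PTE- mice, so injured mice lay on both sides of 0, and the only positive group mean was that of PTE- mice. Ipsilateral group means of Gbe1 were 12.2 ± 1.36 TPM in sham, 13.6 ± 2.87 in PTE- without 9_14 and 13.5 ± 1.03 in PTE+ mice. A constant offset between the 2 tables would cancel in the tested difference, though not in the sham gap itself.

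The Gbe1 difference between hemispheres was not called without PTE+ 9_18 (0.49, limma p = 0.0532) or without sham 9_9 (0.52, limma p = 0.0595), 9_10 (0.41, limma p = 0.125) or 9_11 (0.52, limma p = 0.0566), each leaving 0 calls. It was also lost after quantile normalization (0.39, limma p = 0.0905) and after centring each library on its median gene (0.39, limma p = 0.0803, and 0.33, limma p = 0.0790, without 9_14). After centring, Ldha was called in its place (-0.34, limma p = 0.0382, and -0.33, limma p = 0.0443, without 9_14), beside 1.196% and 2.46% of all tested genes. Over the 17 mice with both hemispheres, a two-sided exact permutation of mice, added after seeing the data, gave 0.45 with p = 0.0496 over 6188 arrangements. Within prefix 8 the within-mouse contrast was 0.13 (5 injured against 2 sham mice), and within prefix 9 it was 0.66 (7 against 3). With the mouse as a replicate block, the estimate was 0.48 (limma p = 0.00989) and Slc16a1 was called too (0.41, limma p = 0.0162), so the block gave 2 calls. Over all tested genes the block gave 6.24% (668 of 10706) against 1.37% without it, so calls went up in general. Slc16a1, without the block, differed by 0.40 (SE 0.26, limma p = 0.134, exact permutation over mice 0.42, p = 0.0244), and by 0.41 without 9_14 (limma p = 0.128). Its ipsilateral level was below the contralateral one in 5 of 5 sham mice, by -0.33 on average (SD 0.070), in 6 of 9 PTE- mice (mean 0.06, SD 0.21) and in 2 of 3 PTE+ mice (mean 0.16, SD 0.78, the highest at 1.06), and the contrast was 0.30 and 0.50 within prefixes 8 and 9. Contralateral group means of Slc16a1 were 60.1 ± 20.3 TPM in sham, 54.5 ± 8.92 in PTE- and 61.4 ± 22.4 in PTE+ mice. Ldha went the other way, with -0.21 (SE 0.12, limma p = 0.0993, exact permutation over mice -0.20, p = 0.0200), and -0.20 without 9_14 (limma p = 0.119). It was lower ipsilaterally in 9 of 9 PTE- mice (mean -0.17, SD 0.096), in 2 of 3 PTE+ mice (mean -0.04, SD 0.15) and in 2 of 5 sham mice (mean 0.06, SD 0.20), the contrast was -0.26 and -0.15 within prefixes 8 and 9, and it was called without sham 8_16 (-0.27, limma p = 0.0488), for 2 calls beside 1.41% of all tested genes. Slc16a1 and Ldha were singled out here after values were seen. Ipsilateral group means of Ldha were 539 ± 71.2 TPM in sham, 548 ± 55.6 in PTE- without 9_14 and 576 ± 54.6 in PTE+ mice. Median differences of the 9 genes and of all tested genes were -0.03 and 0.05, and -0.03 and 0.09 without 9_14.

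**Figure D4:**
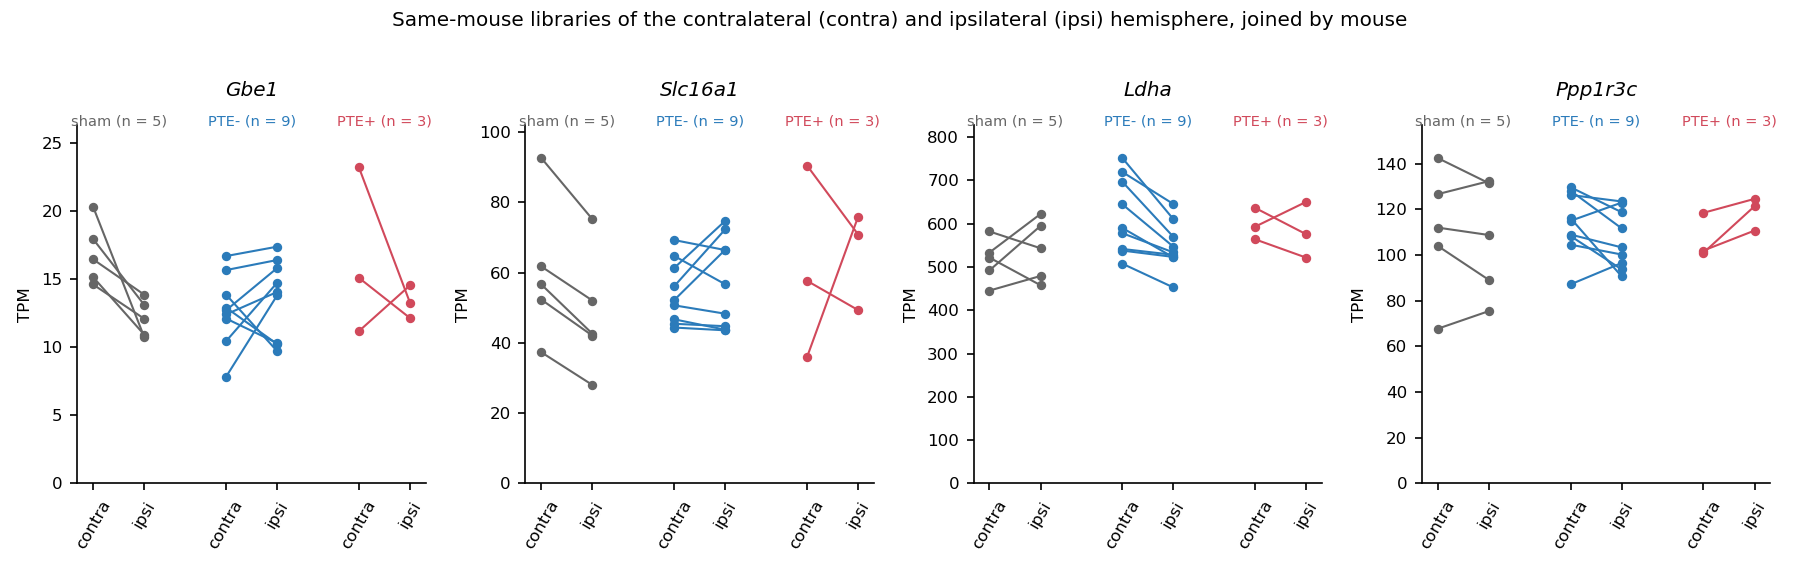
TPM of Gbe1, Slc16a1, Ldha and Ppp1r3c in the contralateral and ipsilateral library of each mouse with both hemispheres, joined by a line, for 5 sham, 9 PTE- and 3 PTE+ mice. Gbe1 and Slc16a1 are lower ipsilaterally in 5 of 5 sham mice, and Ldha in 9 of 9 PTE- mice.

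For PTE+ against PTE-, 0 of 9 genes differed between hemispheres with all libraries, beside 0.0843% of all tested genes (9 of 10681), and 1 gene, Ppp1r3c, without 9_14, beside 0.46%. With all libraries Ppp1r3c differed by 0.48 (SE 0.30, limma p = 0.117), and without 9_14 by 0.31 (SE 0.15, limma p = 0.0426). Over the 12 injured mice with both hemispheres, exact permutation gave 0.24 with p = 0.0409 over 220 arrangements. Ppp1r3c was higher ipsilaterally in 3 of 3 PTE+ mice (mean 0.15) and lower in 7 of 9 PTE- mice (mean -0.09). Within prefixes 8 and 9 the contrast was 0.18 (1 PTE+ against 4 PTE- mice) and 0.28 (2 against 5). With the mouse as a replicate block it was 0.33 (limma p = 0.0948) with all libraries and 0.29 (limma p = 0.0175, called) without 9_14, and the block called 1.99% and 2.11% of all tested genes. Medians over the 9 genes and all tested genes were 0.08 and 0.07, and 0.07 and 0.03 without 9_14.

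Scaling moved the level of comparison for all genes. Centring each library on its median gene moved the median difference of all tested genes from -0.07 to 0.03 in contralateral CCI against sham, from -0.09 to 0.03 in contralateral PTE- against sham and from 0.05 to -0.08 in the CCI difference between hemispheres (0.09 to -0.04 without 9_14). Quantile normalization moved it from 0.12 to 0.01 in ipsilateral PTE+ against PTE-. Relative to these shifts, contralateral Gbe1 in PTE- mice was -0.28 (limma p = 0.0894) after centring and -0.25 (limma p = 0.122) after quantile normalization, and contralateral Ldha after centring was 0.35 in CCI and 0.38 (limma p = 0.0130, called in place of Gbe1) in PTE- mice. The direction of Pygb, Slc16a1, Gbe1, Ldha and Ppp1r3c was the same with centring and with quantile normalization in the comparisons where the text gives their differences. Elsewhere, with all libraries, centring turned contralateral Slc16a1 in CCI (-0.06 to 0.04) and PTE- mice (-0.09 to 0.03) against sham. It also turned contralateral Ppp1r3c in PTE+ against sham (-0.04 to 0.02). The split of calls over all genes moved as well. In ipsilateral CCI against sham 129 genes were higher and 40 lower, against 115 and 62 after centring and 201 and 117 after quantile normalization. The split was 34 and 26 in ipsilateral PTE+ against PTE- (14 and 36 centred, 45 and 90 quantile) and 124 and 39 in ipsilateral PTE+ against sham (101 and 97, 100 and 107). Contralaterally it was 57 and 371 in CCI (255 and 155, 203 and 156), 203 and 88 in PTE+ against PTE- (148 and 213, 125 and 261), 51 and 346 in PTE- (328 and 119, 217 and 127) and 53 and 157 in PTE+ against sham (87 and 154, 86 and 171). Between hemispheres it was 140 and 7 for CCI (62 and 66, 106 and 79) and 5 and 4 for PTE+ against PTE- (12 and 4, 29 and 28). Which genes stayed called was not counted.

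Other genes of the same pathways, 65 in 3 lists, of which 51 to 53 were tested, gave few calls. Of the 24 other glycogen genes, 19 were tested in each comparison, and 1, the liver-type phosphorylase Pygl, fell in contralateral PTE- against sham (-0.34, SE 0.15, limma p = 0.0360). Of the 17 lactate and pyruvate genes, Pdk1, a kinase that switches off pyruvate dehydrogenase, fell in contralateral CCI (-0.48, SE 0.21, limma p = 0.0336) and PTE- mice (-0.62, SE 0.20, limma p = 0.00609), and Pdk2, a second such kinase, rose in ipsilateral PTE+ mice against sham (0.33, SE 0.14, limma p = 0.0333). Of the 24 glucose entry and glycolysis genes, the enolase Eno2 fell in contralateral PTE- mice (-0.44, SE 0.20, limma p = 0.0473). That made 3 of 52 called in contralateral PTE- against sham (3.76% of all tested genes), 1 of 52 in contralateral CCI (4.05%), 1 of 51 in ipsilateral PTE+ against sham (1.56%) and 0 in each of the other 7 comparisons, by limma at unadjusted p under 0.05, too few to set apart from those shares. Without 9_14, Ldhd, a D-lactate dehydrogenase, was called too in ipsilateral CCI (-0.34, SE 0.16, limma p = 0.0436), where 3.83% of all genes were. Of 10 hypoxia response genes, Ankrd37 fell in contralateral CCI (-0.52) and PTE- mice (-0.58). Without 9_14 it was called in ipsilateral CCI (-0.51) and PTE- mice (-0.50) as well. Nr4a1 fell in ipsilateral CCI (-0.91 with and without 9_14). In ipsilateral PTE+ against sham, 6 of 7 tested immediate early genes fell by limma, among them Fos (-2.17) and Egr1 (-1.59). This stood beside 1.56% of all tested genes called. Exact permutation gave p = 0.0952 for Fos, 0.0714 for Egr1, 0.0873 for Nr4a1, 0.103 for Junb and 0.0952 for Ier2.

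The levels of these other genes set the 10 in context. The glycogen genes Pgm1 (357 TPM on average without 9_14), Ugp2 (269) and Ppp1r3g (192), another phosphatase targeting subunit, were above Ppp1r3c, whereas Gys2 (0.0325) and Ppp1r3a (0.000833), the liver synthase and the muscle targeting subunit, were near 0. Pygl averaged 15.2 TPM, below both other phosphorylases. Bsg, the chaperone that MCT1 and MCT4 need at the membrane, averaged 1613 TPM, far above Slc16a1, while Slc16a7, which encodes the neuronal MCT2, averaged 1.2 TPM and the lactate receptor gene Hcar1 1.27 TPM. Of glucose transporters, Slc2a8 averaged 115 TPM and the neuronal Slc2a3 3.11 TPM, below Slc2a1. The hexokinase Hk1 averaged 105 TPM and Hk2 0.636 TPM.

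Ratios between partner genes were computed as a description, after values were seen and with no test. The ratio of Pygb to Pygm had ipsilateral medians of 2.46 in sham, 3.84 in PTE- (3.95 without 9_14) and 4.11 in PTE+ mice, and contralateral medians of 2.96, 2.68 and 3.44. Of ipsilateral injured mice, 5 of 10 PTE- (5 of 9 without 9_14) and 2 of 4 PTE+ were above every sham mouse, and contralaterally 3 of 9 PTE- and 1 of 4 PTE+. The ratio of Ldhb to Ldha had contralateral medians of 6.56 in sham, 4.70 in PTE- and 5.44 in PTE+ mice, with 5 of 9 PTE- and 2 of 4 PTE+ mice below every sham mouse. Ipsilaterally its medians were 5.78, 6.28 (5.89 without 9_14) and 5.76, with 4 of 10 PTE- (4 of 9 without 9_14) and 1 of 4 PTE+ mice below every sham mouse.

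Genes that followed Ppp1r3c, Ldha and Slc2a1 most closely were sought among 10064 genes above 5 TPM, by the smaller of the Pearson r in the 19 ipsilateral and the 18 contralateral libraries after centring on group means. For Ppp1r3c these were Lrrc75a (0.884), Fbxl17 (0.874) and Pknox1 (0.864), and without 9_14 Apln (0.852), Snx27 (0.788) and Klhl26 (0.783), so that the list depended on this library. Ldha was followed by the chaperone genes Hsp90ab1 (0.628) and Dnaja1 (0.598) and by Olig1 (0.585), and without 9_14 by Hsp90ab1 (0.662), Btbd17 (0.647) and Tubb2a (0.644). Slc2a1 was followed by Shisa5 (0.828), Nfkbia (0.787), which encodes an inhibitor of NF-kB, and Tap1 (0.778), and without 9_14 by Shisa5 (0.786), Mpzl1 (0.761) and Trim47 (0.761). These values describe likeness across libraries only.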

How the data were processed

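Astrocytes were captured from cortex, RNA was isolated and libraries were made with the SMART-Seq v4 kit, which does not mark strand. Per the labels and methods, the authors trimmed reads with Trim Galore 0.6.4 and quantified them on mm10 with RSEM 1.2.28 and Bowtie2 2.4.1. They deposited TPM per gene, 1 table per hemisphere. Their own test, DESeq2 1.36.0 on raw counts, was not repeated, since TPM are not counts.

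Gene symbols were matched for 21856 identifiers, 119 had none, and of repeated symbols the identifier with the higher mean was used. No 2 libraries were identical (largest correlation 0.9856). limma 3.58.1 (R 4.3.3) was fitted with a variance trend on log2(TPM + 1) to genes whose mean passed 5 TPM in 1 or more groups of a comparison, after a check on simulated data. Single genes were also tested by two-sided exact permutation, and correlations by permutation (Python 3.11.15, numpy 2.4.6, pandas 2.3.3, scipy 1.17.1). Figures were drawn with matplotlib 3.10.9. Levels of all 10 genes are given. Tests are given for genes with p under 0.05 in any comparison and for the gene with the largest difference in each. Other pathway genes are named where called, at most 5 per list and comparison, and for likeness the 3 closest genes. The genes and lists were chosen with earlier results of these data known.

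Pairing by mouse comes from the mouse numbers in the labels. Deviations from group means correlated with a median r of 0.419 between hemispheres of the same mouse (0.043 to 0.691, above 0.1 in 16 of 17 mice) and of -0.08 between different mice (114 pairs, 10065 genes). The block of limma's duplicateCorrelation used a consensus correlation of 0.6295 for CCI and 0.6371 for PTE.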

Additional observations from a re-analysis of the deposited data

Results flagged for a closer look

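Of 60 groups of libraries (10 genes, 2 hemispheres, 3 outcomes), 5 held a library far from the rest of its group, and about 1 in 20 groups does so by chance. In ipsilateral PTE- mice, library 9_14 was the highest for Gys1 (74.2 TPM, others 27.5 to 45.2) and for Slc16a3 (15.2 TPM, others 0.25 to 0.84) and the lowest for Ppp1r3c (32.9 TPM, others 90.7 to 124). These 3 belong to the library that stood apart over the whole table. In contralateral sham mice, 8_16 was the lowest for Pygb, at 226 TPM against 391 to 475 in the other 4 mice. In ipsilateral sham mice, 9_9 was the lowest for Ldhb, at 2846 TPM against 3311 to 3437 TPM in the other 4 mice. The effect of CCI on Gbe1 differed between the hemispheres by 0.52 on the log2 scale (ipsilateral minus contralateral, limma p = 0.0367), and the cause was not tested.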

How the results depend on the processing

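Counts of genes called were recomputed in 225 alternatives, of which 170 gave the same count and 55 moved, 32 of them with 1 library left out. In 4 of the 170, all with a count of 1, Gbe1 was lost and Ldha called instead: contralateral PTE- against sham centred or without sham 9_10, and the CCI difference between hemispheres centred with and without 9_14. Shares of all tested genes called in the same setting follow in brackets, except without the fold threshold. Ipsilateral CCI against sham had 1 call after median centring (1.70%) and 1 with mouse prefix as a covariate (1.90%). It had 2 with array weights (8.08%) and 2 centred without 9_14 (4.21%). Ipsilateral PTE- against sham had 2 calls with array weights and 1 centred without 9_14. Ipsilateral PTE+ against sham had 0 calls without a TPM filter (2.02%) and 0 after quantile normalization (1.98%). It had 0 in a fit of all 3 groups (0.794%) and 2 with array weights (11.7%). Contralateral CCI had 1 call without a TPM filter (3.40%), 1 centred (3.88%), 1 with array weights (5.76%) and 1 without the fold threshold. Contralateral PTE- had 0 after quantile normalization (3.26%), 2 with array weights (4.00%) and 2 without the fold threshold. The CCI difference between hemispheres had 0 after quantile normalization (1.73%) and 3 with array weights (11.7%). It had 2 with the replicate block (6.24%) and 2 with the block and without 9_14 (7.67%). The PTE+ against PTE- difference had 1 with array weights (4.68%) and 1 with the replicate block without 9_14 (2.11%). The block changed no other call. The cause of these moves was not tested. Array weights raised calls over all genes too, from 169 to 843 in ipsilateral CCI, as did the replicate block, from 147 to 668 in the CCI difference between hemispheres.

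With 1 library left out, calls ran from 0 to 2 in ipsilateral CCI, PTE- and PTE+ against sham. Shares of all tested genes there ran from 1.32% to 4.00%, 1.31% to 3.98% and 0.907% to 9.95%. Calls ran from 0 to 1 in contralateral CCI (2.21% to 8.34%) and contralateral PTE+ against PTE- (1.96% to 4.66%). They ran from 0 to 3 in contralateral PTE- (2.14% to 8.07%). The range was 0 to 2 in the CCI difference between hemispheres (0.581% to 2.69%) and 0 to 1 in the PTE difference (0.0751% to 0.460%). Alternatives were counted for 16 differences of single genes, of which 0 were reversed. With 1 library left out, 178 of these alternatives were the same, 19 became called and 13 lost the call. Under other settings the numbers were 154, 21 and 9. Other differences given in the text were not part of this count. Settings that left out a PTE- library other than 9_14, that joined 9_14 with another change, the permutation over mice, and values of other genes, prefixes and ratios without 9_14 were chosen after seeing the data. Groups of 4 or 5 mice and TPM without depth limit all comparisons.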
